A study of Mus musculus with 18 samples.

Results

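*Nos1*, *Ptgs2*, *Ptges*, *Pappa2*, *Robo2* and *Avpr1a* are listed here as genes of the macula densa. They were picked by name, as 6 of the 55401 genes of the deposited tables and not by a threshold on their values, with earlier results of these data known. They were read in 18 pools of thick ascending limb (TAL) tubules that were dissected by hand from mouse kidneys treated with liberase, 150 to 200 tubules of 1 mouse in each pool. The pools came from the cortex (CTAL) or the outer medulla (MTAL) of WT mice, which carried floxed *Cldn10* alleles and no Cre (Cldn10 fl/fl), or of cKO littermates (Cldn10 fl/fl; Ksp-Cre), in which the Ksp-cadherin promoter drives Cre recombinase in the distal nephron. All mice were adult males per the study's methods, and both genotypes carried the floxed alleles. The labels give a C57BL/6J background, whereas the methods give a mostly C57BL/6 background and no substrain. There were 5 pools of WT CTAL, 5 of cKO CTAL, 5 of WT MTAL and 3 of cKO MTAL. Poly-A mRNA was sequenced, and the estimated counts summed to between 10824299 and 62339939 per pool.

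The macula densa is a small plaque of cells at the cortical end of the TAL, where the tubule touches the vessels of its own glomerulus. Its cells sense the salt that reaches them through the Na-K-2Cl cotransporter, and they set the tone of the afferent arteriole and the release of renin through nitric oxide and prostaglandin E2. It lies at the end of the CTAL and not in the MTAL, so that CTAL tubules cut close to the glomerulus can carry it whereas MTAL tubules should not.

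The labels of some pools need care. WT CTAL replicate 1 has a pool name of the WT series but a title and genotype of the knock-out. Its *Cldn10* level was 446 CPM (CPM are the reads of a gene scaled to a common TMM-normalized library size), against 383 to 579 CPM over the WT CTAL pools and 156 to 185 CPM over the cKO CTAL pools, and it was used as WT. *Xist*, the RNA of the inactive X chromosome of females, stood at 6.50 to 8.91 CPM in 7 pools (WT CTAL replicates 3 and 22, cKO CTAL replicate 2 and WT MTAL replicates 11, 15, 17 and 19) and at 0.234 to 0.736 CPM in the other 11, although the mice are described as male. The 4 Y-linked genes measured, *Ddx3y*, *Kdm5d*, *Eif2s3y* and *Uty*, were present in every pool and summed to 89.2 to 109 CPM in the *Xist*-high pools and to 90.3 to 125 CPM in the others. *Slc26a4*, the chloride-bicarbonate exchanger pendrin of intercalated cells, stood at 23.5 to 30.7 CPM in 3 pools (cKO CTAL replicates 2 and 9 and cKO MTAL replicate 20) and at 1.22 to 6.40 CPM in the other 15. The TAL markers *Slc12a1* (11416 to 16187 CPM) and *Umod* (23565 to 55062 CPM) were abundant in every pool.

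The 6 genes were detected in all 18 pools, but at low levels. Their lowest values came from 3 reads, and their highest from 635. In CPM they ranged from 0.163 for *Nos1* in a WT MTAL pool to 17.4 for *Ptges* in a cKO MTAL pool. The sum of the 6 genes lay between 7.35 and 34.4 CPM in the CTAL pools, and between 3.23 and 27.4 CPM in the MTAL pools. *Ptgs2*, *Ptges* and *Avpr1a* had their highest values in MTAL pools, so that the sum is not a measure of the macula densa alone. As in every bulk sample, fewer cells of a type and less RNA per cell cannot be told apart.

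**Figure D1:**
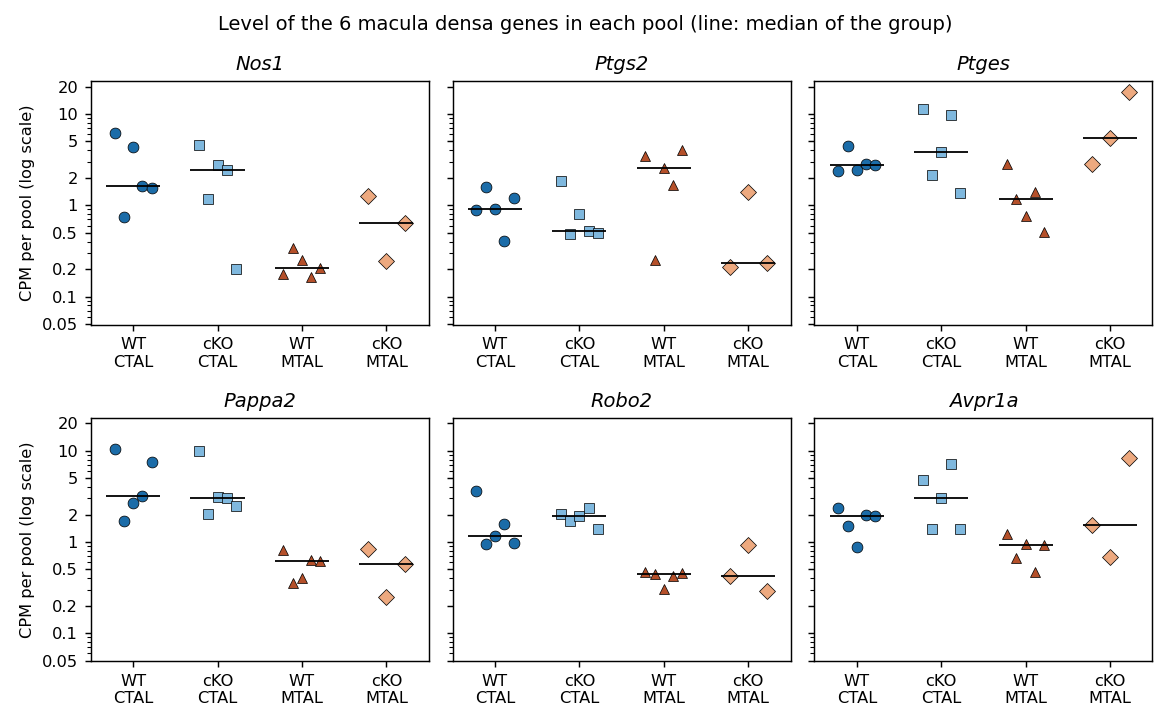
CPM (log scale) of each of the 6 genes in each pool, by group, with 1 symbol per pool and a line at the median of the group. *Nos1*, *Pappa2* and *Robo2* were lower in all 5 WT MTAL pools than in any WT CTAL pool, *Ptgs2* was high in 4 of 5 WT MTAL pools, and *Ptges* was higher in all 3 cKO MTAL pools than in any WT MTAL pool.

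Between the segments of WT mice, *Nos1*, *Pappa2* and *Robo2* were less expressed in MTAL than in CTAL, by 12.4-fold, 9.06-fold and 3.92-fold. *Ptges*, *Avpr1a* and *Ptgs2* did not pass the test. None of the 6 genes reached the study's filter of 3 CPM in 5 pools here, so they were tested after a filter of 10 reads in at least 5 pools. Of the 6 genes, 3 were called (edgeR quasi-likelihood test, Benjamini-Hochberg adjusted p under 0.05 and at least 2-fold), all 3 lower in MTAL, where 2.38% of the 16113 genes tested were called and 1.63% were called lower. With the 3 CPM filter 2.32% were called. With the lower filter, 6 of 6 had an unadjusted p under 0.05, against 17.5% of all genes. Of these, *Ptgs2* was higher in MTAL and the others were lower. The likelihood ratio test of DESeq2 called 3 of 6, against 3.16% of all genes. The median log2 fold change of the 6 genes was −1.57, and that of all genes tested was 0.02. In CPM, 3 of 6 genes did not overlap between the segments, against 6.38% of all genes and 3.69% that were lower.

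*Nos1* encodes the neuronal nitric oxide synthase, which makes nitric oxide in macula densa cells and is the classical marker of the plaque (ENSMUSG00000029361, chromosome 5 of GRCm38 from 117781032 to 117958840, plus strand). In the WT CTAL pools (replicates 1, 3, 8, 10 and 22) it stood at 6.15, 0.753, 4.34, 1.63 and 1.55 CPM. In the WT MTAL pools (replicates 11, 13, 15, 17 and 19) it stood at 0.176, 0.338, 0.252, 0.163 and 0.204 CPM, from 3 to 16 reads a pool. All MTAL pools were low and close together, all CTAL pools lay above them, and the CTAL pools themselves spread widely. The log2 fold change was −3.63 (standard error 0.57, edgeR adjusted p = 0.00128). The exact Mann-Whitney test gave p = 0.00794, the smallest value that 5 pools against 5 allow. At 3 reads, the 95% counting interval of the 0.176 CPM ran from 0.0363 to 0.514 CPM, so that the order of the MTAL pools was not resolved at this depth.

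*Pappa2* encodes pappalysin-2, a secreted protease that cleaves the IGF binding proteins IGFBP-3 and IGFBP-5 (ENSMUSG00000073530, chromosome 1 from 158711727 to 158980490, minus strand). Its WT CTAL values were 10.3, 1.69, 2.68, 3.22 and 7.48 CPM, and its WT MTAL values were 0.821, 0.359, 0.403, 0.633 and 0.611 CPM. Here too every CTAL pool was above every MTAL pool (exact Mann-Whitney p = 0.00794), and the highest CTAL pool was replicate 1, as for *Nos1*. The log2 fold change was −3.18 (standard error 0.50, edgeR adjusted p = 0.00127).

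*Robo2* encodes a receptor for the guidance factors of the Slit family (ENSMUSG00000052516, chromosome 16 from 73891839 to 74411825, minus strand). It stood at 3.66, 0.941, 1.16, 1.56 and 0.977 CPM in WT CTAL and at 0.469, 0.443, 0.302, 0.429 and 0.458 CPM in WT MTAL. The segments did not overlap (exact Mann-Whitney p = 0.00794), with CTAL replicate 1 far above the rest. The log2 fold change was −1.97 (standard error 0.44, edgeR adjusted p = 0.0166). The call of *Robo2* was lost without WT CTAL replicate 1, the pool with conflicting labels (log2 fold change −1.46, edgeR adjusted p = 0.0653), and without WT MTAL replicate 15 (−1.88, edgeR adjusted p = 0.0520).

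The segments of WT mice also differed in *Xist*, which was high in 2 of 5 CTAL pools and in 4 of 5 MTAL pools. Within these 2 CTAL and 4 MTAL pools, the log2 fold changes were −2.90 for *Pappa2* (edgeR adjusted p = 0.0729) and −1.20 for *Robo2* (edgeR adjusted p = 0.451). Neither was called in this subset, and 2 pools against 4 are too few for the lack of a call to bear on the result. Without the *Xist*-high pools, 3 CTAL pools and 1 MTAL pool were left, which is too few for a test to bear on the result, and the differences were −3.56 for *Nos1*, −3.88 for *Pappa2* and −2.23 for *Robo2*. *Nos1* had too few reads to be tested in the *Xist*-high pools, where its CTAL values were 0.753 and 1.55 CPM and its MTAL values were 0.163 to 0.252 CPM. In the deposited TPM values the differences of *Nos1* and *Robo2* were not called with either pseudocount, and that of *Pappa2* with 1 of them.

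Some markers of cells that adjoin the macula densa were lower in WT MTAL as well, 1 of the 7 genes of the renin cell and mesangium list and 2 of the 4 genes tested of the distal convoluted tubule list. Of all genes tested, 2.38% were called and 1.63% were called lower. *Ren1*, the renin of the juxtaglomerular cells, stood at 5.76 to 39.5 CPM in WT CTAL and at 2.85 to 7.72 CPM in WT MTAL (log2 fold change −1.99, edgeR adjusted p = 0.0114). *Slc12a3*, the cotransporter of the distal convoluted tubule that follows the macula densa, stood at 1.93 to 22.6 CPM in CTAL and 1.58 to 2.76 CPM in MTAL (−2.23, edgeR adjusted p = 0.0108), and *Calb1*, also of distal tubule, was lower as well (−1.94, edgeR adjusted p = 0.0358). The other genes of both lists were not called, among them *Pdgfrb* (5.63 CPM in MTAL against 5.39 CPM in CTAL on average), *Rgs5* (21.7 against 22.1 CPM) and *Trpm6* (1.77 against 1.58 CPM). *Klhl3* and *Tagln* were not called either but were lower in MTAL on average. *Klhl3* stood at 37.4 to 44.3 CPM in MTAL and 53.2 to 71.5 CPM in CTAL, with no overlap, and *Tagln* averaged 1.42 against 3.01 CPM. The summed renin cell and mesangium list overlapped between the segments, at 28.9 to 47.5 CPM in MTAL and 28.7 to 80.4 CPM in CTAL. The summed distal convoluted tubule list did not overlap, at 44.5 to 52.1 CPM in MTAL and 74.6 to 94.2 CPM in CTAL. *Nphs1*, a defining marker of podocytes, stood at 0 to 0.0845 CPM over the 18 pools. What part these neighbours have in the values of the 3 genes was not tested.

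Between the segments of cKO mice, *Pappa2* and *Robo2* did not overlap either, although no gene was called. In cKO CTAL (replicates 2, 4, 7, 9 and 21) *Pappa2* stood at 9.95, 2.05, 3.08, 3.03 and 2.50 CPM, and in cKO MTAL (replicates 16, 18 and 20) at 0.845, 0.247 and 0.580 CPM. Every cKO CTAL pool was above every cKO MTAL pool, with replicate 2 far above the others. The log2 fold change was −2.84 (standard error 0.66, edgeR adjusted p = 0.0568), and the exact Mann-Whitney test gave p = 0.0357, the smallest value that 3 pools against 5 allow. *Robo2* stood at 2.002, 1.70, 1.92, 2.34 and 1.40 CPM in cKO CTAL and at 0.423, 0.937 and 0.290 CPM in cKO MTAL, again with no overlap (log2 fold change −1.71, standard error 0.50, edgeR adjusted p = 0.124, exact p = 0.0357).

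*Nos1* overlapped between the cKO segments. Its cKO CTAL values were 4.60, 1.17, 2.78, 2.42 and 0.200 CPM, and its cKO MTAL values were 1.27, 0.247 and 0.638 CPM. Replicate 21 of cKO CTAL, with 4 reads, was as low as the MTAL pools (log2 fold change −1.62, standard error 0.82, edgeR adjusted p = 0.322). In all, 0 of 6 genes were called between the cKO segments by the edgeR test, 3 of them tested with the 3 CPM filter and all 6 with the lower one, where edgeR called 0.938% and 0.654% of all genes. With the lower filter, 2 of 6 had an unadjusted p under 0.05, against 17.8% of all genes, and the likelihood ratio test of DESeq2 called 2 of 6, against 3.17% of all genes. The 2 genes that did not overlap, both lower in MTAL, stood against 10.2% of all genes and 6.13% that were lower.

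**Figure D2:**
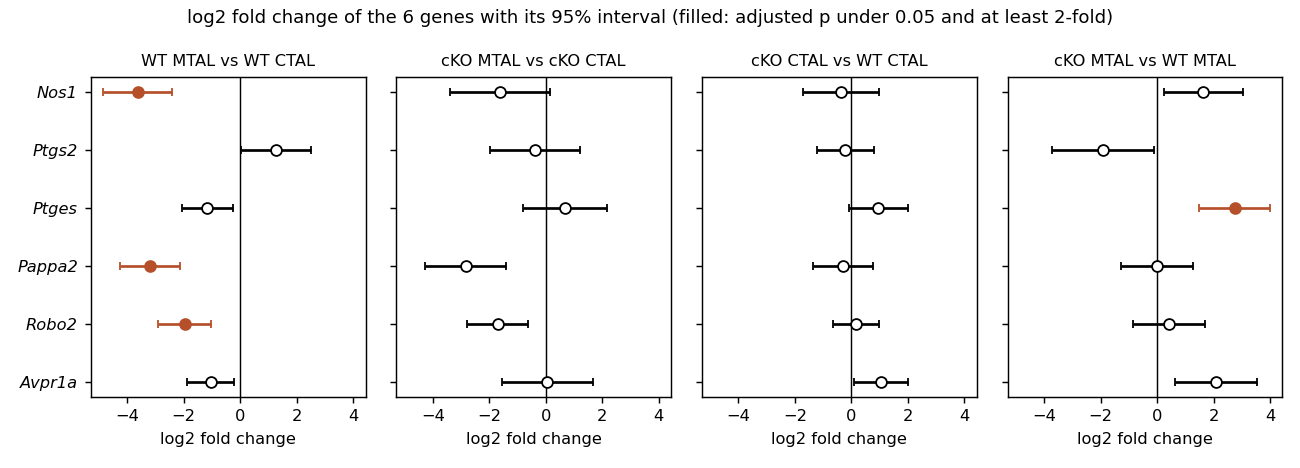
log2 fold change of each gene in the 4 comparisons, with its 95% interval, on a common axis; filled points passed an adjusted p under 0.05 and a 2-fold change. *Nos1*, *Pappa2* and *Robo2* lay below 0 in both comparisons of segments, and *Ptges* in cKO MTAL was the only gene called between genotypes.

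Between the genotypes in CTAL, where the macula densa sits, none of the 6 genes was called. The edgeR test called 0 of 6 genes, where 0.47% of all genes were called with the 3 CPM filter and 0.343% with the lower one. With the lower filter, 1 of 6 had an unadjusted p under 0.05 (*Avpr1a*), against 10.6% of all genes, and the DESeq2 likelihood ratio test called 0 of 6, against 0.558% of all genes. No gene was free of overlap, against 2.63% of all genes. The log2 fold changes and their 95% intervals were −0.37 for *Nos1* (−1.71 to 0.96), −0.30 for *Pappa2* (−1.36 to 0.75) and 0.17 for *Robo2* (−0.64 to 0.98). The intervals of *Nos1* and *Pappa2* held a value 2-fold lower in cKO and did not hold one 2-fold higher, and that of *Robo2* held neither. The sign of *Nos1* and *Pappa2* turned when the pool with conflicting labels was left out (0.08 and 0.11) or counted as cKO (0.44 and 0.43).

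*Ptgs2* encodes cyclooxygenase-2, which feeds the synthesis of prostaglandins and is expressed in the macula densa and in medullary interstitial cells (ENSMUSG00000032487, chromosome 1 from 150100031 to 150108227, plus strand). It stood at 0.895, 1.60, 0.900, 0.407 and 1.21 CPM in WT CTAL and at 1.84, 0.479, 0.808, 0.517 and 0.500 CPM in cKO CTAL (log2 fold change −0.22, edgeR adjusted p = 0.920). In WT MTAL it stood at 3.46, 0.253, 2.57, 1.67 and 4.07 CPM and in cKO MTAL at 0.211, 1.38 and 0.232 CPM. Its highest level was thus in WT MTAL, and 4 of the 5 WT MTAL pools lay above every WT CTAL pool whereas replicate 13 lay below them all. Neither the difference between the WT segments (log2 fold change 1.28, standard error 0.58, edgeR adjusted p = 0.267) nor that between the genotypes in MTAL (−1.91, standard error 0.85, edgeR adjusted p = 0.195) was called.

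*Ptgs2* moved with *Xist* from pool to pool. The 7 *Xist*-high pools held 1.21 to 4.07 CPM of *Ptgs2* (median 1.84), and the other 11 held 0.211 to 1.38 CPM (median 0.500). Within CTAL the ranges were 1.21 to 1.84 CPM in 3 pools and 0.407 to 0.900 CPM in 7 pools, with no overlap, and within MTAL 1.67 to 4.07 CPM in 4 pools and 0.211 to 1.38 CPM in 4 pools, also with no overlap. *Xist* was high in 4 of 5 WT MTAL pools and in 0 of 3 cKO MTAL pools. Without the *Xist*-high pools, where 1 WT MTAL pool was left, *Ptgs2* turned to −1.52 between the WT segments and to 1.30 between the genotypes in MTAL. *Col1a2*, a collagen of interstitial cells, stood at 13.4 to 18.9 CPM in the 7 *Xist*-high pools, at 11.3 CPM in cKO MTAL replicate 18, the pool with 1.38 CPM of *Ptgs2*, and at 3.90 CPM or less in the other 10 pools. The other 4 genes of the interstitium list did not separate the pools in this way. *Col3a1*, another collagen, stood at 2.52 to 5.56 CPM in the *Xist*-high pools and at 0.779 to 12.6 CPM in the others, with its highest levels in cKO MTAL replicates 18 and 20. The sum of the list was 35.1 to 50.2 CPM in the *Xist*-high pools and 11.1 to 52.2 CPM in the others. The part of interstitial cells in the level of *Ptgs2* was not tested.

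*Ptges* encodes the microsomal prostaglandin E synthase, which makes prostaglandin E2 from the product of the cyclooxygenases (ENSMUSG00000050737, chromosome 2 from 30889471 to 30929863, minus strand). In WT MTAL it stood at 2.82, 1.16, 0.755, 1.41 and 0.509 CPM, and in cKO MTAL at 2.82, 5.48 and 17.4 CPM. All 3 cKO pools were above all WT pools, replicate 16 by less than 0.01 CPM and replicate 20 by far. The log2 fold change was 2.74 (standard error 0.59, edgeR adjusted p = 0.0109, exact Mann-Whitney p = 0.0357). It was the only member that passed the 3 CPM filter in this comparison and was called, against 3.74% of the genes tested with that filter, and 2.69% that were called higher. With the lower filter 1 of 6 genes was called, against 2.73% of all genes and 1.95% that were higher, and 1 of 6 did not overlap, against 13.4% and, for genes that were higher, 5.73% of all genes. With this filter 4 of 6 had an unadjusted p under 0.05 (*Nos1*, *Ptgs2*, *Ptges* and *Avpr1a*), against 23% of all genes. The DESeq2 likelihood ratio test called 2 of 6, against 5.27% of all genes.

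The call was lost without 1 pool. Without cKO MTAL replicate 20 the log2 fold change of *Ptges* fell to 1.67 (edgeR adjusted p = 0.182, lower filter). Pool by pool, TPM per CPM of *Ptges* was 0.293 to 0.754 in 17 pools and 1.76 in replicate 20, and the difference was not called by limma on TPM (adjusted p = 0.106). The annotated *Ptges* transcripts run from 446 to 3647 bases.

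In CTAL, *Ptges* stood at 2.37, 4.52, 2.44, 2.85 and 2.80 CPM in WT and at 11.3, 2.13, 3.84, 9.66 and 1.35 CPM in cKO pools. Replicates 2 and 9 of cKO were high, and replicates 4 and 21 were lower than any WT pool (log2 fold change 0.96, standard error 0.48, edgeR adjusted p = 0.521). Between the WT segments the log2 fold change was −1.17 (edgeR adjusted p = 0.146, exact p = 0.0556).

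*Avpr1a* encodes the V1a vasopressin receptor, which signals through Gq proteins and calcium (ENSMUSG00000020123, chromosome 10 from 122448499 to 122453452, plus strand). It stood at 2.37, 1.51, 0.884, 1.96 and 1.92 CPM in WT CTAL and at 4.72, 1.39, 3.03, 7.23 and 1.40 CPM in cKO CTAL (log2 fold change 1.06, standard error 0.45, edgeR adjusted p = 0.411). In WT MTAL it stood at 1.23, 0.676, 0.957, 0.470 and 0.916 CPM and in cKO MTAL at 1.55, 0.691 and 8.29 CPM. Replicates 2 and 9 of cKO CTAL and replicate 20 of cKO MTAL were the highest, as for *Ptges*, and the genotypes overlapped in both segments through cKO replicates 4 and 21 in CTAL and 18 in MTAL. Between the genotypes in MTAL the log2 fold change was 2.09 (standard error 0.68, edgeR adjusted p = 0.0911), and it fell to 0.42 without replicate 20. Between the WT segments it was −1.04 (standard error 0.39, edgeR adjusted p = 0.162).

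*Ptges* and *Avpr1a* moved with *Slc26a4*. The 3 *Slc26a4*-high pools held 9.66 to 17.4 CPM of *Ptges* and 4.72 to 8.29 CPM of *Avpr1a*, against 0.509 to 5.48 CPM and 0.470 to 3.03 CPM in the other 15 pools, with no overlap for either gene. All 3 were cKO pools. The summed level of the 5 intercalated cell markers was 125 to 189 CPM in these pools and 16.02 to 71.5 CPM in the others, and that of the 5 principal cell markers reached 899 CPM in cKO MTAL replicate 20, with *Aqp2* at 539 CPM. Without the 3 pools, the log2 fold change of *Ptges* in CTAL turned to −0.28. The part of collecting duct cells in the levels of both genes was not tested.

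**Figure D3:**
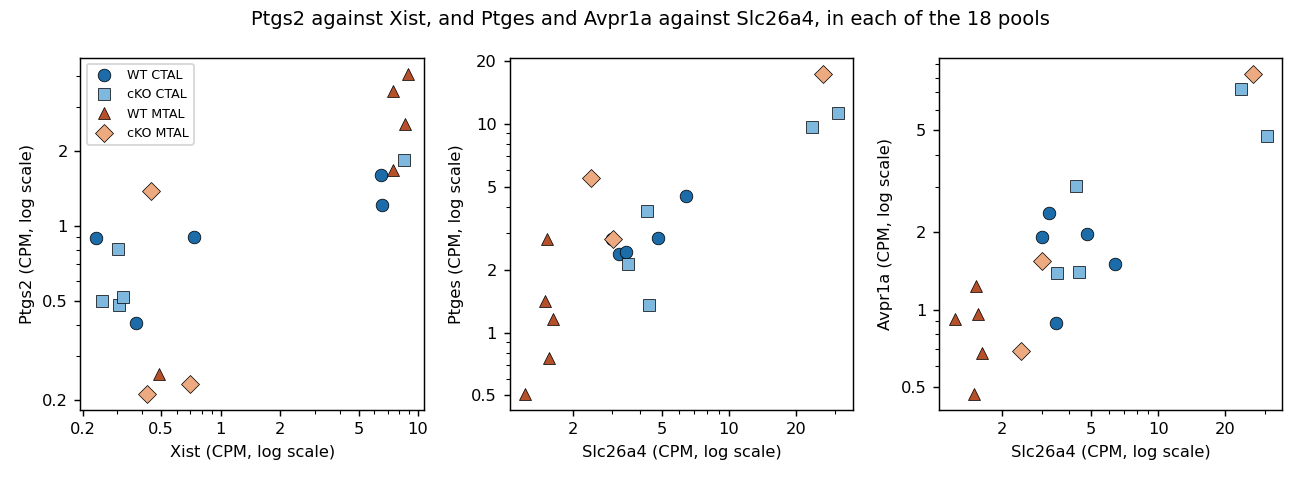
*Ptgs2* against *Xist* (left), and *Ptges* (middle) and *Avpr1a* (right) against *Slc26a4*, in CPM on log scales with 1 symbol per pool. The 7 pools with *Xist* at 6.50 CPM or more held 1.21 CPM of *Ptgs2* or more, and the 3 pools with *Slc26a4* at 23.5 CPM or more held the highest *Ptges* and *Avpr1a*.

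In MTAL, the other 4 genes did not pass the test between the genotypes. *Nos1* had a log2 fold change of 1.63 (standard error 0.65, edgeR adjusted p = 0.156), with cKO replicate 18 inside the WT range and the other two pools above it. *Pappa2* and *Robo2* had values of 0.00 (95% interval −1.28 to 1.28) and 0.42 (−0.87 to 1.70). Whether cKO differed from WT by another amount in MTAL than in CTAL was tested with an interaction term in a fit of all 18 pools. The edgeR test called 0 of 6 genes, against 0.286% of the 12586 genes with the 3 CPM filter and 0.081% with the lower one, and 1 of 6 had an unadjusted p under 0.05, against 15.2% of all genes (*Ptges*, 1.79, standard error 0.82, edgeR adjusted p = 0.310). The DESeq2 likelihood ratio test also called 0 of 6, against 2.71% of all genes. *Nos1* differed by 2.01 (standard error 0.99, edgeR adjusted p = 0.352), and *Ptgs2* by −1.70 (standard error 0.98, edgeR adjusted p = 0.413).

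Levels of different genes can be compared only per length, in TPM. In WT CTAL the medians ran from *Avpr1a* (0.932 TPM), *Ptges* (0.909), *Pappa2* (0.697), *Ptgs2* (0.315) and *Robo2* (0.281) down to *Nos1* (0.204). Neighbours in this order were in the same order in only 3 or 4 of 5 pools, and so did not differ beyond their spread. In WT MTAL *Ptgs2* had the highest median (0.897 TPM), and *Nos1* was the lowest gene in all 5 pools (median 0.029 TPM). *Ptges* was the highest gene in all 3 cKO MTAL pools (median 3.32 TPM). The ratio of TPM to CPM was stable for *Nos1* (0.104 to 0.187) and *Avpr1a* (0.434 to 0.599) but varied for *Pappa2* (0.119 to 0.900) and *Robo2* (0.209 to 1.32), which have 6 and 13 annotated transcripts.

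The levels varied from pool to pool in CTAL and some genes varied together. Over the 10 CTAL pools, the log2(CPM + 1) of *Nos1*, as its deviation from the mean of the genotype, had a Pearson r of 0.63 and a Spearman rho of 0.60 with *Pappa2*, and of 0.68 and 0.79 with *Robo2*. Without WT CTAL replicate 1 and cKO CTAL replicate 21, the 2 pools farthest in *Nos1*, r was 0.54 and 0.55. *Ptges* and *Avpr1a* had an r of 0.83 and a rho of 0.72, and an r of 0.79 without cKO CTAL replicates 2 and 21. By contrast, *Ptgs2* had an r of −0.15 with *Robo2* and 0.26 with *Nos1*. The r of *Pappa2* with *Robo2* was 0.56 and fell to 0.04 without its 2 farthest pools, and that of *Ptgs2* with *Ptges* was 0.58 and fell to 0.08. Of the 15 pairs, 14 had an r above 0, and their median of 0.49 ran from 0.25 to 0.55 when 1 pool was left out. The genes of a pair share their libraries and depth, so these values are a description.

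**Figure D4:**
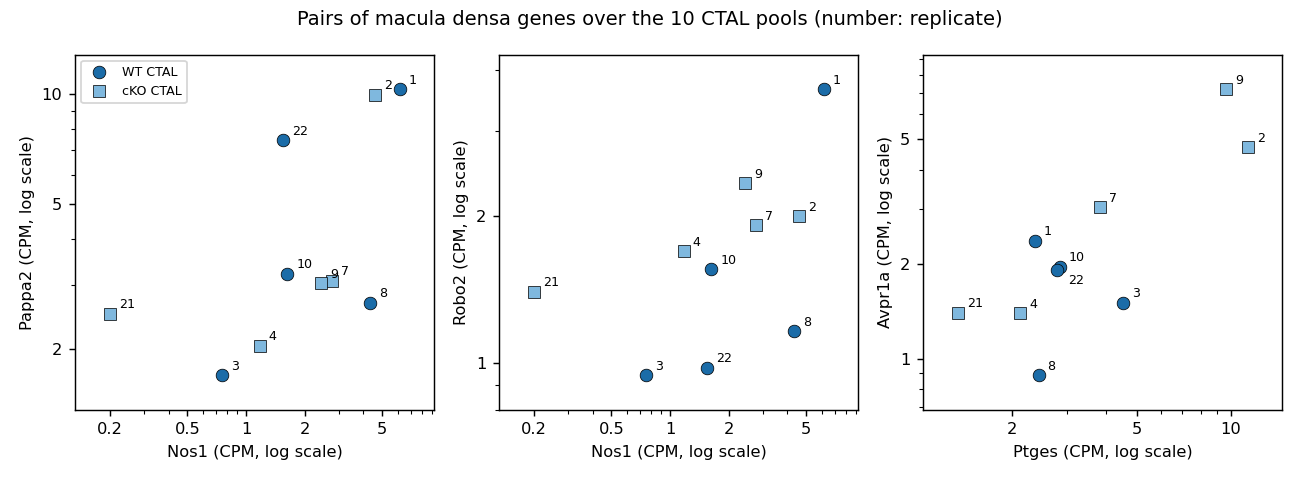
Pairs of genes over the 10 CTAL pools in CPM (log scales), *Nos1* with *Pappa2* (left) and *Robo2* (middle) and *Ptges* with *Avpr1a* (right), each point labelled with its replicate number. WT CTAL replicate 1 is the highest in *Nos1*, *Pappa2* and *Robo2*, and cKO CTAL replicates 2 and 9 are the highest in *Ptges* and *Avpr1a*.

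Among 13777 genes, those most like *Nos1* over the 10 CTAL pools were *Dipk1b*, *Gm11847*, *Igsf11*, *Ttbk1* and *Plek2* (Pearson r from 0.93 to 0.94). For *Pappa2* they were *Slc23a1*, *9530068E07Rik*, *Actn1*, *Selenos* and *Fbxw11* (0.92 to 0.94), and for *Robo2* *Spryd7*, *Zadh2*, *Tmem268*, *Gm5537* and *Matn4* (0.89 to 0.92). For *Ptges* they were *Tuba1a*, *Erp29*, *Cul2*, *Mrps23* and *Slc44a3* (0.95 to 0.98), and for *Avpr1a* *Hibadh*, *Smpd1*, *Ppa2*, *Prdx3* and *Bmpr1b* (0.91 to 0.93). These are the highest values of many, and none of *Nos1*, *Pappa2*, *Robo2*, *Ptges* and *Avpr1a* was among the nearest genes of another. *Ptgs2*, at a mean under 1 CPM in these pools, was not ranked.

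Of 11 other genes known from the macula densa, 6 were tested between the WT segments and 2 were less expressed in MTAL, 0 more, where 2.38% of all genes were called and 1.63% were called lower. These were *Slc9a2*, the sodium-proton exchanger NHE2 (28.0 against 69.6 CPM on average, log2 fold change −1.31, edgeR adjusted p = 4.05e-05), and *Cxcl14*, a chemokine (0.644 against 2.06 CPM, −1.65, edgeR adjusted p = 0.0290). *Fabp3*, a fatty acid binding protein, stood at 243 CPM in WT CTAL and 255 CPM in WT MTAL and did not pass (0.07, edgeR adjusted p = 0.816). *Ccn1* was higher in MTAL on average (71.6 against 51.5 CPM, 0.48) and did not pass. *Sema3c* (45.4 against 46.0 CPM, −0.02) and *Bmp3* (1.08 against 1.79 CPM, −0.75) did not pass either. *Oxtr* (the oxytocin receptor), *Calcr* (the calcitonin receptor) and *Sphkap* had group means under 0.5 CPM in all 4 groups. Between the segments of cKO mice 7 were tested. There *Ccn1* was more expressed in MTAL (1.19, edgeR adjusted p = 0.000934) and *Slc9a2* less (−1.17, edgeR adjusted p = 0.00201), where 0.654% of all genes were called. Between the genotypes, edgeR called 0 of the 6 genes tested in CTAL, against 0.343% of all genes. In MTAL it called 0 of the 7 tested, against 2.73% of all genes.

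Several partners of the members differed between groups. In the nitric oxide and cGMP list of 13 genes, 11 were tested in each comparison. *Arg2*, the arginase that competes for the substrate of nitric oxide synthases, was more expressed in cKO CTAL (28.4 against 11.8 CPM, log2 fold change 1.28, edgeR adjusted p = 0.0288) and in cKO MTAL (33.7 against 5.68 CPM, 2.58, edgeR adjusted p = 0.00207). In cKO MTAL, *Ddah1* and *Ddah2*, which degrade inhibitors of nitric oxide synthases, were also more expressed (1.60 and 1.04, edgeR adjusted p = 0.0292 and 0.0136), and *Nos2*, the inducible synthase, was less expressed (−2.72, edgeR adjusted p = 0.0143). *Arg2* was thus the only gene of the list called in CTAL, where 0.343% of all genes were called, and 3 rose and 1 fell in MTAL, where 2.73% were called. In cKO MTAL, 2 of the 4 genes tested of a tubular injury list were also higher, with a summed level of 1968 to 8124 CPM against 1050 to 1262 CPM in WT MTAL, and 3 of 5 endothelial genes were lower. Their part in these values was not tested. *Ddah1*, *Ddah2* and *Pde9a*, a phosphodiesterase of cGMP, were lower in MTAL than in CTAL of WT mice (−1.03, −1.12 and −1.25).

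Of the 16 genes of prostaglandin synthesis, transport and receptors, 15 were tested between the genotypes in each segment. In CTAL 0 were called by edgeR, against 0.343% of all genes, and in MTAL 1 was called higher and 1 lower, against 2.73% of all genes. In MTAL *Slco2a1*, the prostaglandin transporter, was more expressed in cKO (35.7 against 9.79 CPM, 1.89, edgeR adjusted p = 0.000754) and *Ptgds*, the prostaglandin D synthase, was less expressed (26.5 against 54.9 CPM, −1.03, edgeR adjusted p = 0.00276). Both differed the opposite way between the WT segments, *Slco2a1* by −1.75 and *Ptgds* by 1.52. The other prostaglandin E synthases *Ptges2* and *Ptges3* stood at 35.5 to 43.3 and 72.0 to 77.7 CPM on average over the 4 groups and were not called.

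In the list of pappalysins and IGF binding proteins, which holds 13 genes, *Igf1* was less expressed in cKO CTAL (8.18 against 19.1 CPM, −1.23, edgeR adjusted p = 0.00187) and in cKO MTAL (8.14 against 31.8 CPM, −1.95, edgeR adjusted p = 0.000848). *Igfbp4* was lower in MTAL than in CTAL of WT mice (6.62 against 31.6 CPM, −2.25, edgeR adjusted p = 9.53e-06) and more expressed in cKO than in WT MTAL (1.96, edgeR adjusted p = 0.000925), as was *Igfbp2* at a low level (3.41 against 0.429 CPM, 2.95, edgeR adjusted p = 0.0338). All 9 genes of the Slit and Robo list were tested, as were 1 or 2 of the 3 other vasopressin and oxytocin receptors, and edgeR called 0 of them in each of the 4 comparisons. Of all genes it called 0.343% and 2.73% between the genotypes in CTAL and MTAL, and 2.38% and 0.654% between the WT and cKO segments. *Slit2*, a ligand of *Robo2*, stood at 371 CPM in WT CTAL and 264 CPM in WT MTAL, and *Avpr2*, the V2 receptor, at 26.0 and 26.7 CPM.

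The sequence before the start of a gene can be set beside these levels. The 250 bases before the RefSeq start (GRCm38.p6) are shown for *Robo2*, which was low in MTAL, for *Ptgs2*, which was not, and for *Ptges* and *Avpr1a*, which varied together. The windows of *Nos1* (0 exonic bases) and *Pappa2* (192 exonic bases) lie inside their GENCODE genes and are not shown. That of *Ptges* also lies inside its gene, with 0 exonic bases, so that it precedes the RefSeq start and not the GENCODE one. Capitals mark matches, on either strand, to the TATA box TATAAA, the GC box GGGCGG, the half-site GTTAAT of HNF1, the half-site TGACG of the cAMP response element, the E-box CACGTG and the box CCAAT.
Robo2 (chr16:74411826-74412075, minus strand): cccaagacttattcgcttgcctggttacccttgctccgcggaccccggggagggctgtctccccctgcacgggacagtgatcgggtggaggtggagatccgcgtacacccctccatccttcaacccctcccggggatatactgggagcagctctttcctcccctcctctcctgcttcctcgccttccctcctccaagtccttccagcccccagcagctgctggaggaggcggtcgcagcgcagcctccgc
Ptgs2 (chr1:150099781-150100030, plus strand): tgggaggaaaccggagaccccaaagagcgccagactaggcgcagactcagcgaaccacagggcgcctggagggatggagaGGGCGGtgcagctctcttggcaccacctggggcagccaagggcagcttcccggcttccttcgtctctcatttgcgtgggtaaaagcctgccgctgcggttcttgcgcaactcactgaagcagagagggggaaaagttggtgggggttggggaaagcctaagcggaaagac
Ptges (chr2:30903298-30903547, minus strand): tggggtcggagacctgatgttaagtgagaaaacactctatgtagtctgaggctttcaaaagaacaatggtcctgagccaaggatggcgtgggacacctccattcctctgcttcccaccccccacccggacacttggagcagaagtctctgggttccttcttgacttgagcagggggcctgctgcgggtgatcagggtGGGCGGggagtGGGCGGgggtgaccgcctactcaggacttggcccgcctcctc
Avpr1a (chr10:122448249-122448498, plus strand): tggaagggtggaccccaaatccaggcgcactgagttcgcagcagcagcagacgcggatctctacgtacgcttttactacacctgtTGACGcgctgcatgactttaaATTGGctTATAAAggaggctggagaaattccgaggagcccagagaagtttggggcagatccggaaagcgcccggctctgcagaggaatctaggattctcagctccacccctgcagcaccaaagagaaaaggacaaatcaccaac
*Robo2* has 3 RefSeq starts, and the window shown, at the GENCODE gene start, held none of the 6 motifs. Another of its windows (chr16:75447294-75447543) held GTTAAT at 223 bases and CACGTG at 18 bases before its start. *Ptgs2* held 1 GC box, at 170 bases before the start, and *Ptges* held 2, at 53 and 42 bases. *Avpr1a* held a TATA box, a cAMP half-site and a CCAAT box, in reverse, close to each other at 137, 165 and 144 bases. Of the 32851 windows of the same length, 12.4% held TATAAA, 32.7% GGGCGG, 6.43% GTTAAT, 17.8% TGACG, 6.02% CACGTG and 33.8% CCAAT. The motif that *Ptges* and *Ptgs2* share was thus a common one, and no motif was shared by *Ptges* and *Avpr1a*.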

How the data were processed

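The authors checked reads with FastQC, trimmed them (fastp in the paper, Trimmomatic in the submitters' processing notes), and mapped and quantified them on mm10 with DRAGEN and a gencode annotation. They deposited estimated counts, which are not normalized and were rounded here, where the design written in advance had assumed whole counts, and TPM, which corrects for transcript length and depth. The library kit was strand-specific per the paper, but the strand setting of the counting is not given in the sources used here. Values of *Nos1*, *Avpr1a* and *Robo2*, which overlap annotated genes on the opposite strand, are thus uncertain. *Nos1*, *Pappa2*, *Ptges* and *Robo2* overlap genes on their own strand, and this uncertainty holds under any strand setting. Each comparison was fitted on its own pools with edgeR (version 4.0.16, R version 4.3.3), with TMM factors and the quasi-likelihood test, after the study's filter of 3 CPM in 5 pools (3 where cKO MTAL entered); members under it were read from a filter of 10 counts in as many pools as the smaller group. Genes were called at a Benjamini-Hochberg adjusted p under 0.05, over all genes tested, and an absolute log2 fold change of 1 (the interaction by adjusted p alone). Pools were also compared in CPM by the Mann-Whitney test (exact, two-sided), without adjustment over the members. Alternatives changed the filter, normalization and unit, fitted all pools together, and left out each pool, the *Slc26a4*-high or the *Xist*-high pools; the *Slc26a4* and *Xist*-only subsets and the counts with the lower filter were added after seeing the data. They used DESeq2 (version 1.42.0) and limma (version 3.58.1). The fits were tested on simulated data. The genes named are the 6 members, listed genes past a threshold or defining a cell type, and the 5 genes most correlated with each member at 1 CPM or more. *Slit2*, *Avpr2*, *Fabp3*, *Sema3c*, *Bmp3*, *Oxtr*, *Calcr*, *Sphkap*, *Ptges2*, *Ptges3*, *Pdgfrb*, *Rgs5*, *Trpm6*, *Klhl3*, *Tagln* and *Col3a1* were added after their values were seen. Members and lists were chosen with earlier results of these data known. Each pool came from 1 mouse. Pools of a group differed by more than sampling noise (chi-square per gene of at least 16.1). Intervals from counts cover counting error only. Of the pools the study describes, 2 of cKO MTAL and 1 of cKO CTAL that it excluded are not analysed here.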

Additional observations from a re-analysis of the deposited data

Results flagged for a closer look

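In 5 of the 18 groups of 5 pools, 1 pool lay far from the other 4 relative to the range of the group (Dixon's 95% critical value), where chance flags about 1 in 20 groups. *Pappa2* was high in cKO CTAL replicate 2, at 9.95 CPM, and *Ptgs2* was high in the same pool, at 1.84 CPM. This pool was also high in *Xist* and *Slc26a4*. *Ptges* was high in WT CTAL replicate 3, at 4.52 CPM. *Robo2* was high in WT CTAL replicate 1, the pool with conflicting labels, at 3.66 CPM, and low in WT MTAL replicate 15, at 0.302 CPM, from 6 reads.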

How the results depend on the processing

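No paired analysis was possible because the groups share no replicate numbers. A replicate block could thus not be fitted. Values are log2 fold changes unless they are counts of members, and the cause of each change was not tested. Between the genotypes in CTAL and for the interaction, 0 members were called under every alternative run. In WT MTAL against WT CTAL, where the 3 CPM filter tested no member, 3 were called with the lower filter and 3 with no filter. The 3 calls with the lower filter became 1 on log2(TPM + 0.1), 0 on log2(TPM + 1) and 0 with only the *Xist*-high pools, where few pools were left. They ran from 2 to 4 leaving out each pool. Without the *Xist*-high pools, where 1 WT MTAL pool was left, *Ptgs2* turned to −1.52. In cKO MTAL against WT MTAL, 1 member was called, against 2 with no filter, 0 on either TPM scale, 0 without the *Slc26a4*-high pools, and 0 to 1 leaving out each pool. Without the *Xist*-high pools 1 WT MTAL pool was left, so that only fold changes are given. With the lower filter it was 2 by DESeq2's likelihood ratio test (against 5.27% of all genes) and in one fit of all pools. It was 0 on TPM and without the *Slc26a4*-high pools, and 0 to 2 leaving out each pool. Non-overlapping members went from 1 to 0 in TPM, and to 1 to 4 leaving out each pool. There, *Pappa2* turned to 0.0066 with DESeq2 size factors, 0.43 and 0.084 on the TPM scales and 0.63 without the *Xist*-high pools (−0.42 to 0.36 leaving out each pool), *Ptgs2* to 1.30 without the *Xist*-high pools, and *Robo2* ran from −0.22 to 0.72 leaving out each pool. In cKO MTAL against cKO CTAL, 0 calls became 1 with no filter, 1 by DESeq2 (2 with the lower filter), 1 in one fit with either filter and 0 to 1 leaving out each pool with the lower filter, and 2 non-overlapping members became 1 in TPM. *Avpr1a* turned to −0.016 with no filter and −0.40 and −0.16 on the TPM scales (−1.65 to 0.56 leaving out each pool), *Ptgs2* to 0.15 without the *Xist*-high and 0.47 without the *Slc26a4*-high pools (−1.86 to 0.15), and *Ptges* ran from −0.41 to 1.07. Between the genotypes in CTAL, *Robo2* turned to −0.17 without the *Xist*-high pools, *Ptges* to −0.28 without the *Slc26a4*-high pools, and *Nos1* and *Pappa2* to 0.44 and 0.43 with the conflicting pool as cKO (−0.81 to 0.084 and −0.94 to 0.11 leaving out each pool). In the interaction, *Robo2* turned to −0.11 on log2(TPM + 0.1) (−0.38 to 0.55 leaving out each pool), *Pappa2* ran from −0.11 to 0.95 and *Avpr1a* from −0.57 to 1.57. With as few as 3 reads in a pool, small differences in these genes were not detectable.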
